A study of Mus musculus with 8 samples.

Results

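Transcripts of progranulin (Grn), of its sorting receptors and of its partners in the lysosome were followed in macrophages with and without Grn. The 7 genes were chosen by symbol: Grn, the receptor gene Sort1, the co-transported precursor gene Psap, the endocytic receptor gene Lrp1, the mannose 6-phosphate receptor genes M6pr and Igf2r, and the lysosomal membrane protein gene Tmem106b. Each symbol matched a single entry among 56980 genes in the deposited table, and all 7 passed the filter on low counts that left 12186 genes for testing. The question put by the series was how constitutive loss of Grn changes the macrophage transcriptome. Bone-marrow-derived macrophages, which are grown from mouse marrow with the growth factor M-CSF, came from C57/Bl6 mice that were either wild type (WT, 4 libraries) or Grn knockout (GrnKO, 4 libraries). Both groups received the vehicle DMSO, M-CSF at 50 ng/mL and a final culture of 3 days, and the cells had been frozen after 7 days of differentiation and thawed. Each biological replicate pooled the marrow of several mice, and the labels give neither the age of the animals nor the part of Grn that was removed. Nothing in the labels says that the replicates were thawed or cultured on separate occasions, so the p-values measure the spread between these cultures.

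Progranulin is a secreted glycoprotein built of granulin modules. Sortilin, the product of Sort1, binds its carboxyl-terminal tail and delivers it to the lysosome. Prosaposin, the product of Psap, binds progranulin as well and takes it along through the receptors encoded by Lrp1 and Igf2r. In the lysosome, proteases cut progranulin into granulins and prosaposin into saposins, which help hydrolases to reach sphingolipids. The receptors encoded by M6pr and Igf2r carry newly made lysosomal enzymes that bear mannose 6-phosphate. In humans, loss of GRN causes frontotemporal dementia or, when both copies are lost, a lysosomal storage disease, and TMEM106B modifies the risk of the dementia.

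The windows around the start of transcription of 3 of these genes are shown because they belong to the deleted gene (Grn), to the partner whose estimate differed most from 0 (Psap) and to the member whose window holds the sequence CACGTG (Igf2r). RefSeq windows on GRCm38.p6, 250 bases before to 50 bases after the start, were at hand for 5 of the 7 genes, Psap having 2 windows; Sort1 and M6pr had none. Capitals mark matches to 3 motifs on either strand. The first is CACGTG, the core of the element that many lysosomal genes carry and the TFEB family binds. The second, TGANTCA, is known as an AP-1 motif. The third is the GC box, GGGCGG, and none of the marked motifs is part of another.
Grn, chr11:102430257-102430556, plus strand: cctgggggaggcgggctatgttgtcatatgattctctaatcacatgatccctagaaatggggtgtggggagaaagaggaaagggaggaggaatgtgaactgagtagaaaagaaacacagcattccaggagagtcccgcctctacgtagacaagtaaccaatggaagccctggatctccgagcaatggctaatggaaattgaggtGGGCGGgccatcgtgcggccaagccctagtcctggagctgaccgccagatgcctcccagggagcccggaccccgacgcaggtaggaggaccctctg
Psap, first window, chr10:60277378-60277677, plus strand: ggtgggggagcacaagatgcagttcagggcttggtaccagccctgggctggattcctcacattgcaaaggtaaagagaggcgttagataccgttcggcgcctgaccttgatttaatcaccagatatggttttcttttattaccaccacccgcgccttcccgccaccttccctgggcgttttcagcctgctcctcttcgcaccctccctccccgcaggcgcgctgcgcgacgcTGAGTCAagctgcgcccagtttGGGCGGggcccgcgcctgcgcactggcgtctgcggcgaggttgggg
Igf2r, chr17:12769657-12769956, minus strand: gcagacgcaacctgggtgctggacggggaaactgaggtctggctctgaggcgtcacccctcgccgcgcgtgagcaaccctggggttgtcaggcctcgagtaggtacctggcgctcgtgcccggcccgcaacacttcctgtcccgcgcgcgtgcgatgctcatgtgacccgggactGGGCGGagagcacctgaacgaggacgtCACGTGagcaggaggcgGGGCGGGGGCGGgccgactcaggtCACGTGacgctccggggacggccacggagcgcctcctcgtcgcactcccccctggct
The Igf2r window holds CACGTG at 2 places, starting 48 and 7 bases before the start of transcription. This motif occurs in 7.15% of 32851 such windows. The Grn, Lrp1 and Tmem106b windows and both Psap windows do not hold it. The first Psap window holds TGAGTCA, a form of TGANTCA, which 7.81% of windows contain. GGGCGG, present in 35.7% of windows, occurs in those of Grn, Lrp1 and Igf2r and in the first Psap window. These matches describe letters in the windows, not binding.

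The GrnKO libraries had almost no Grn transcript. Grn gave 13121, 12422, 13505 and 14884 counts across the 4 WT replicates, in order, against 97, 73, 89 and 102 counts across the GrnKO replicates. After scaling to library size (CPM, counts per 1000000 of the scaled library total), the mean was 1665 ± 266 in WT and 13.5 ± 0.693 in GrnKO (SD, n = 4 per group). The fold was 0.0081, with a 95% interval of 0.00642 to 0.0103 (edgeR quasi-likelihood test, adjusted p = 4.15e-10), and Grn had the smallest p of all tested genes. The groups were far apart, and each library matched its label. The gene that overlaps Grn on the opposite strand, Fam171a2, had 0 to 8 counts per library. Because libraries sample the 3′ end of transcripts and the removed part is not stated, the remaining Grn counts do not tell which RNA they came from.

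Of the 7 members, Grn was the only gene called at an adjusted p under 0.05 (edgeR quasi-likelihood test, adjusted over all tested genes). The background rate of calls was 4.25%, made up of 2.79% for genes higher in GrnKO and 1.46% for genes lower. Without scaling factors, 281 genes were called higher and 281 lower, in place of 340 and 178. Grn was also the only member whose groups did not overlap, which was so for 12.0% of tested genes. The other 6 were not called, and their estimates ran in both directions: Psap, Igf2r and Tmem106b above 0, Sort1, Lrp1 and M6pr below. In bulk RNA, fewer cells of a type and less RNA per cell cannot be told apart.

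**Figure D1:**
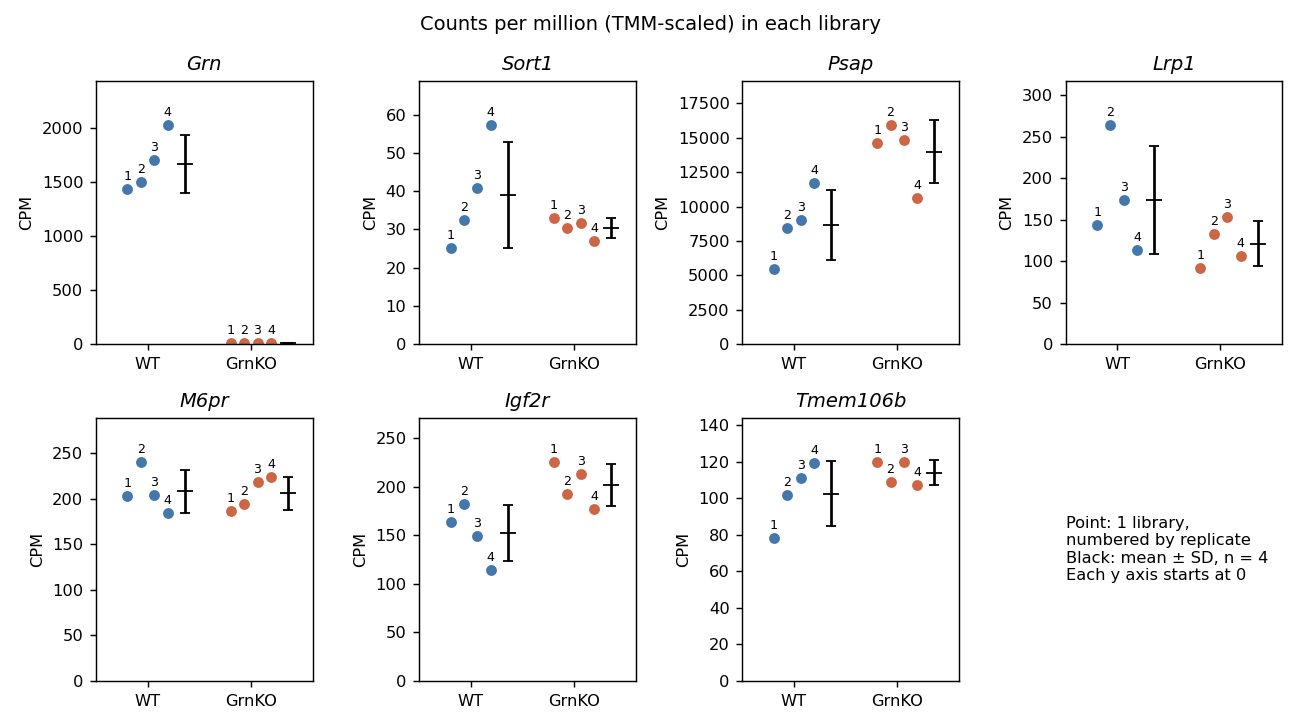
CPM of each of the 7 genes in the 4 WT and 4 GrnKO libraries; each point is a library numbered by its replicate, black marks are the mean ± SD (n = 4), and every axis starts at 0. Grn is between 1436 and 2027 CPM in WT and at most 14.4 CPM in GrnKO, whereas the groups overlap for the other 6 genes.

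Psap transcripts, which encode the saposin precursor, stood higher in GrnKO in 3 of its 4 libraries than in any WT library. They measured 5451, 8456, 8989 and 11718 CPM across the 4 WT replicates, in order, against 14605, 15926, 14798 and 10629 CPM across the GrnKO replicates. GrnKO replicate 4 lay below WT replicate 4, so the groups overlapped. The means were 8654 ± 2569 and 13990 ± 2315 CPM (SD, n = 4 per group), a log2 fold change of 0.69 ± 0.20 (SE). Psap was not called (edgeR adjusted p = 0.0852), although its 95% interval of 0.25 to 1.14, which is not adjusted for the number of genes, lay above 0.

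The Psap call depended on the method and on a single WT library. Without WT replicate 4 the log2 fold change was 0.87 (edgeR adjusted p = 0.0178; 5.53% of genes were called). DESeq2 gave 0.70 (adjusted p = 0.0268; 6.00% of genes called). Over the other 7 libraries left out in turn the edgeR adjusted p ranged up to 0.24. No count was recorded in any library for Psapl1, the prosaposin-like paralog, which leaves room for up to 3 counts per library.

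Sort1, the gene of the receptor that captures progranulin, did not differ between genotypes beyond the spread of the WT libraries. It measured 25.2, 32.5, 40.9 and 57.3 CPM across the 4 WT replicates, in order, against 33.1, 30.4, 31.6 and 26.9 CPM across the GrnKO replicates. All GrnKO values fell inside the WT range, which spanned 2.28-fold from lowest to highest. The log2 fold change was -0.35 ± 0.22 (SE; edgeR adjusted p = 0.436), with a 95% interval of -0.83 to 0.12. Without WT replicate 4, the highest library, the log2 fold change was -0.11. Without WT replicate 1, the lowest, it was -0.52 (edgeR adjusted p = 0.109). Sort1 rested on 171 to 421 counts per library.

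Lrp1, which encodes an endocytic receptor for prosaposin and many other ligands, was likewise not called. It measured 144, 264, 173 and 114 CPM across the 4 WT replicates, in order, against 91.7, 133, 153 and 107 CPM across the GrnKO replicates. WT replicate 2 was the highest of the 8 libraries and GrnKO replicate 1 the lowest, and the remaining values of both groups were interleaved. The log2 fold change was -0.52 ± 0.24 (SE; edgeR adjusted p = 0.288), with a 95% interval of -1.05 to 0.01. Without WT replicate 2 it shrank to -0.25, and without WT replicate 4 it grew to -0.68 (edgeR adjusted p = 0.103). Testing every gene with a count, which changes the estimate of the spread, gave an adjusted p of 0.00808 (2.51% of genes called).

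The 2 mannose 6-phosphate receptors had different estimates. M6pr, the cation-dependent receptor, measured 203, 241, 204 and 185 CPM across the 4 WT replicates, in order, against 186, 194, 219 and 224 CPM across the GrnKO replicates. Its log2 fold change was -0.02 ± 0.11 (SE; edgeR adjusted p = 0.963), and the 95% interval of the fold, 0.832 to 1.18, bounds the change these libraries allow. Reads of the pseudogene M6pr-ps, counted separately, amounted to 0 to 3 per library.

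Igf2r, the cation-independent receptor, which also binds insulin-like growth factor 2, measured 164, 182, 149 and 115 CPM across the 4 WT replicates, in order, against 226, 192, 213 and 177 CPM across the GrnKO replicates. Except for GrnKO replicate 4, which lay below WT replicate 2, the GrnKO values were above all WT values. The log2 fold change was 0.41 ± 0.15 (SE; edgeR adjusted p = 0.162), with an unadjusted 95% interval of 0.09 to 0.73. The antisense transcript Airn, which overlaps Igf2r, had 6 to 22 counts against 841 to 1518 for Igf2r; the sources used here do not say whether the counting used strand.

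Tmem106b, the lysosomal membrane protein gene, measured 78.3, 102, 111 and 119 CPM across the 4 WT replicates, in order, against 120, 109, 120 and 107 CPM across the GrnKO replicates. WT replicates 1 and 2 were below every GrnKO library, and WT replicates 3 and 4 lay among them. The log2 fold change was 0.15 ± 0.14 (SE; edgeR adjusted p = 0.611), with a 95% interval of -0.14 to 0.45. Without WT replicate 1, the lowest library, it was 0.04, and without WT replicate 4 it was 0.23.

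**Figure D2:**
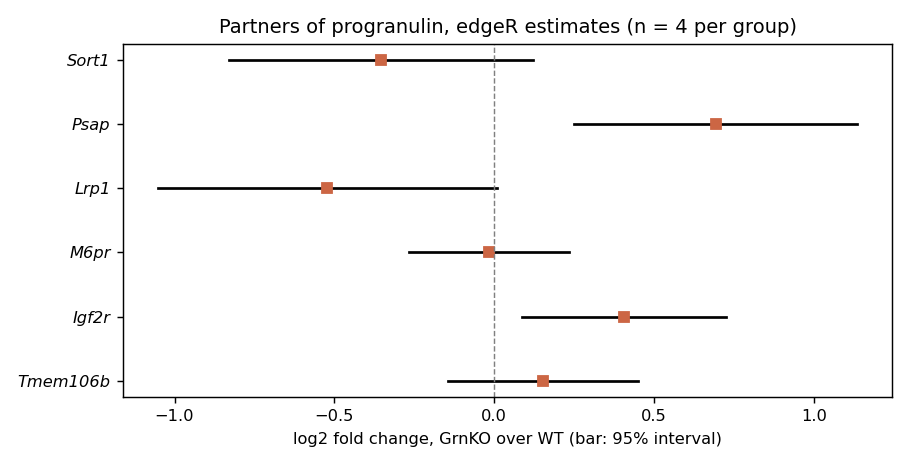
Log2 fold change of GrnKO over WT for the 6 partners of progranulin; squares are edgeR estimates and bars their 95% intervals, not adjusted for the number of genes tested (n = 4 per group). The intervals of Psap (0.25 to 1.14) and Igf2r (0.09 to 0.73) lie above 0, and those of Sort1, Lrp1, M6pr and Tmem106b include 0.

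Among the WT cultures, these genes differed from library to library more than among the GrnKO cultures. The SD of log2 CPM was larger in WT than in GrnKO for all 7 members, as it was for 70.1% of all tested genes. Lrp1 (SD 0.51), Sort1 (0.50) and Psap (0.46) varied most in WT, against a median of 0.28 over all tested genes, and M6pr least (0.16). WT replicate 4 held the highest WT value of Grn, Sort1, Psap and Tmem106b and the lowest of Lrp1, M6pr and Igf2r. WT replicate 1 held the lowest value of the first 4 genes, and WT replicate 2 the highest of the other 3. Over all tested genes, WT replicate 4 had the highest WT value in 31.1% and the lowest in 31.2%.

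Ratios between members within a library do not depend on how the library is scaled, and 3 of them were compared. They are ratios of counts of different genes, so only their difference between genotypes was read. All 3 were chosen with earlier results of these data known, so their p-values are given as a description. The log2 ratio of Psap to its carrier Sort1 came to 7.75, 8.02, 7.78 and 7.67 across the 4 WT replicates, in order, against 8.78, 9.03, 8.87 and 8.62 across the GrnKO replicates. Every GrnKO library exceeded every WT library. The mean was 7.80 ± 0.15 in WT and 8.82 ± 0.17 in GrnKO (SD, n = 4 per group), a difference of 1.02, or 2.03-fold. The exact two-sided permutation test over 70 assignments gave p = 0.0286, the smallest it can give; adjusted over the 3 ratios it was 0.0857, which does not pass 0.05. The SD of this ratio in WT, 0.15, was smaller than that of Psap or Sort1 alone, as both genes were low in WT replicate 1 and high in WT replicate 4.

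The log2 ratio of Psap to Lrp1 was 5.65 ± 0.74 in WT and 6.86 ± 0.33 in GrnKO (SD, n = 4 per group; exact two-sided permutation test, p = 0.0857, adjusted 0.0857). WT replicate 4, at 6.68, lay within the GrnKO range of 6.59 to 7.31. The log2 ratio of M6pr to Igf2r was 0.46 ± 0.16 in WT and 0.03 ± 0.25 in GrnKO (exact two-sided permutation test, p = 0.0571, adjusted 0.0857). GrnKO replicate 4, at 0.34, lay above WT replicate 1, at 0.31, and the other GrnKO libraries were below all WT libraries.

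**Figure D3:**
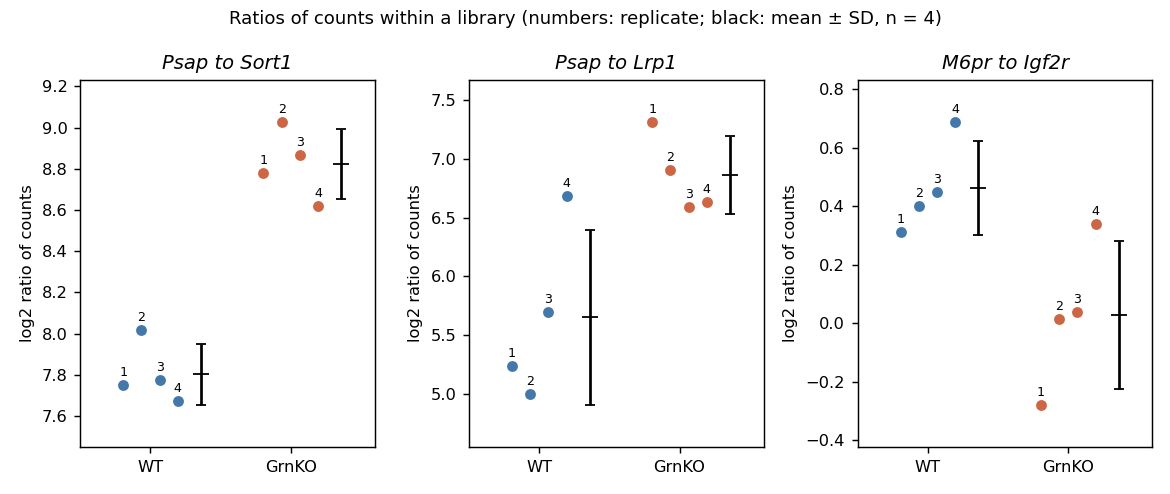
Log2 ratio of the counts of Psap to Sort1, Psap to Lrp1 and M6pr to Igf2r in each library, numbered by replicate, with mean ± SD in black (n = 4 per group). The Psap to Sort1 ratio is 7.67 to 8.02 in WT and 8.62 to 9.03 in GrnKO; the groups overlap in the other panels.

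Genes with related roles were read from 7 lists: VPS10 receptors, LRP receptors, mannose 6-phosphate tagging and sorting, sphingolipid degradation, proteases that cleave progranulin or prosaposin, other reported progranulin receptors, and the TMEM106 family. Leaving out the members, 54 of their genes were tested, of which 7 were higher and 1 lower in GrnKO, or 14.8% against 4.25% of all tested genes. The proteases, with 10 tested genes, held 5 of the 8 called, and each other list held at most 1. The median log2 fold change of the 54 genes was 0.02, against -0.03 for all tested genes. Since the lists were drawn up with earlier results known, the share is given as a description.

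The machinery that tags and sorts lysosomal enzymes had no called gene. All 22 listed genes were tested, M6pr and Igf2r included, and edgeR, DESeq2 and limma-voom each called 0 of them. An unadjusted p under 0.05 was reached by 5 in edgeR, a threshold at which the share of all tested genes was not counted. The median log2 fold change of the list was -0.02. Vps35, a retromer subunit that recycles sorting receptors including sortilin, had the smallest p among the others (0.25 ± 0.10 SE, edgeR adjusted p = 0.19). Gnptab, which encodes the enzyme that starts the mannose 6-phosphate tag, had 0.36 ± 0.16 (adjusted p = 0.251) and Scarb2, an abundant lysosomal membrane protein, -0.17 ± 0.13 (adjusted p = 0.554); both were named after their values were seen. Of the VPS10 family, Sorl1 was the other tested member (-0.20 ± 0.18, adjusted p = 0.614), and Sorcs1, Sorcs2 and Sorcs3 had too few counts.

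Of the LRP receptors and their chaperone, 7 listed genes besides Lrp1 were tested. Lrp12 rose, against 2.79% of all tested genes called higher, and the other 6 were not called. Lrp12 measured 319, 284, 315 and 323 CPM across the 4 WT replicates, in order, against 623, 569, 564 and 489 CPM across the GrnKO replicates. The groups did not overlap, and the log2 fold change was 0.86 ± 0.10 (SE; edgeR adjusted p = 6.66e-04). Lrpap1, which encodes a chaperone of some of the receptors in this family, was not called (0.11 ± 0.12, adjusted p = 0.681, named after its value was seen).

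Among 10 tested genes of sphingolipid degradation, 1 was called higher, against 2.79% of all tested genes, and none lower. The list had a median log2 fold change of 0.11. The gene that rose, Gla, encodes alpha-galactosidase A, whose substrate is presented by a saposin. It measured 84.4, 134, 81.2 and 97.5 CPM across the 4 WT replicates, in order, against 183, 182, 172 and 164 CPM across the GrnKO replicates, with no overlap (log2 fold change 0.82 ± 0.15 SE, edgeR adjusted p = 0.0115). The prosaposin receptor genes Gpr37 and Gpr37l1 had at most 3 counts in any library.

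The proteases held 5 of the 8 called genes. Of 10 tested, 5 rose and none fell, against 2.79% of all tested genes called higher, with a median log2 fold change of 0.63. They were macrophage elastase Mmp12 (1.49 ± 0.10 SE) and the cathepsins Ctsk (1.93 ± 0.29), Ctsd (0.81 ± 0.12), Ctss (0.70 ± 0.09) and Ctsl (0.61 ± 0.11), the last named after its value was seen (edgeR adjusted p of at most 0.0109). Ctsk, with the largest estimate, rested on only 12 to 80 counts per library. Its mean was 2.32 CPM in WT and 8.96 in GrnKO, against 2785 CPM for Ctsd in WT. Without GrnKO replicate 2, Ctsl was not called (edgeR adjusted p = 0.0531). Ctsb had groups that did not overlap but was not called by edgeR (0.54 ± 0.16 SE, adjusted p = 0.0984, named after its value was seen). DESeq2 called 6 of the 10, against 6.00% of all genes it tested. Lgmn, the asparaginyl endopeptidase, had 0.04 ± 0.17 (adjusted p = 0.939; named after its value was seen).

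Of the other reported progranulin receptors, 3 were tested. EdgeR called 1 of them, which fell, against 1.46% of all tested genes called lower. DESeq2 called 2, against 6.00% of all genes it tested. Notch1, a receptor that signals through its cleaved intracellular part, measured 23.6, 25.3, 26.8 and 28.1 CPM across the 4 WT replicates, in order, against 17.7, 18.8, 17.2 and 12.4 CPM across the GrnKO replicates. Its log2 fold change was -0.65 ± 0.15 (SE; edgeR adjusted p = 0.036). This call held without WT replicate 1 and was lost without any other single library (adjusted p up to 0.112). Tnfrsf1a, which encodes a receptor of tumour necrosis factor, had groups that did not overlap but was not called by edgeR (-0.40 ± 0.11 SE, adjusted p = 0.0641; named after its value was seen). Of the TMEM106 family and the proton pump accessory gene Atp6ap1, no gene was called by edgeR, DESeq2 or limma-voom and 0 had an unadjusted p under 0.05; Tmem106a, the paralog with the smallest p, had -0.16 ± 0.10 (adjusted p = 0.43).

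**Figure D4:**
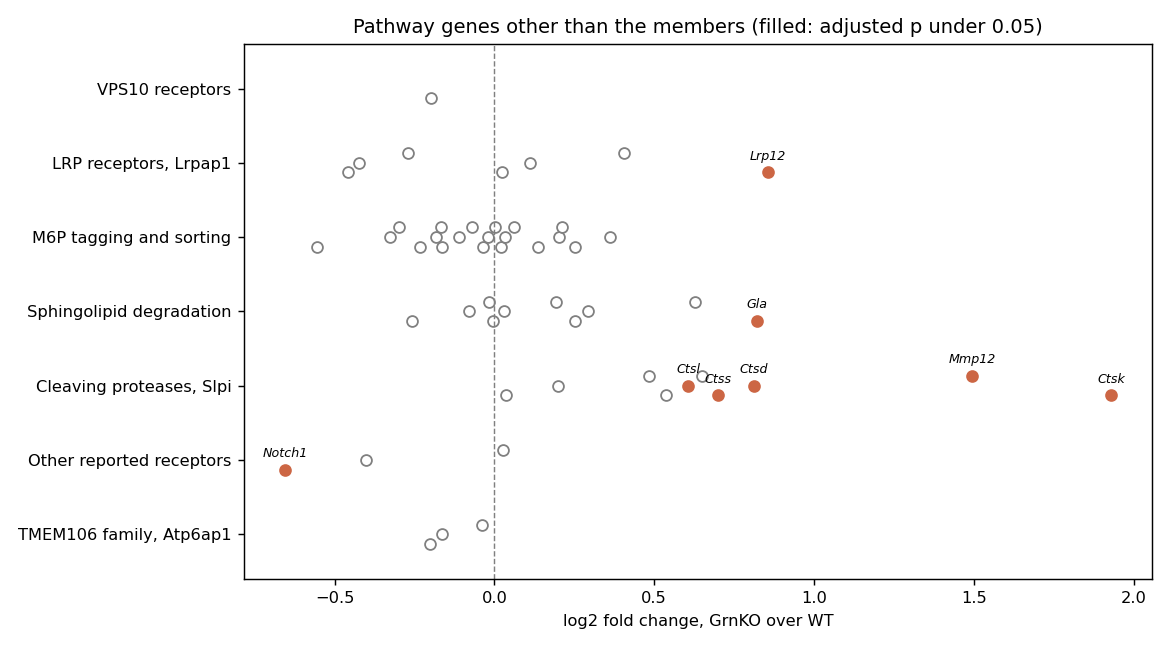
Log2 fold change of GrnKO over WT for the tested genes of the 7 lists, members left out; each circle is a gene, filled where the edgeR adjusted p is under 0.05. The 7 filled circles on the right are Lrp12, Gla and 5 proteases, the filled circle on the left is Notch1, and the row of tagging and sorting genes has none.

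The genes whose values followed each member most closely across the 8 libraries were found by the root mean square (RMS) difference of log2 CPM, each gene centred on its own mean, among 6251 other genes, predicted models left out, whose mean reached 20 CPM. This distance includes the difference between genotypes, so it favours genes with a change of like size and does not show shared regulation. For Grn even the nearest genes, the chemokine receptor genes Cx3cr1 and Ccr2, were distant, at 2.00 and 2.44. Both were lower in GrnKO (log2 fold change -3.21 and -2.03). Sort1 was followed most closely by the endosomal RNA sensor gene Tlr7 (0.071) and the sphingomyelin synthase gene Sgms1 (0.088). Psap was followed by the glycogenin gene Gyg (0.087) and the heparanase gene Hpse (0.117), and Lrp1 by the dynein gene Dync1h1 (0.181) and Ahnak (0.198). M6pr was nearest to the mitochondrial ribosome gene Mrpl43 (0.049) and the parvin gene Parvb (0.053), and Igf2r to Nabp1 (0.098) and the zinc transporter gene Slc39a11 (0.104). Tmem106b was nearest to the endosomal GTPase gene Rab5b (0.043) and the tyrosine phosphatase gene Ptpn1 (0.057).

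Library totals were 7413222 to 8768772 counts in WT and 5828178 to 7944863 in GrnKO. All 8 listed macrophage markers were tested. EdgeR called 0 of them, although 6 had an unadjusted p under 0.05, and DESeq2 called 3, against 6.00% of all genes it tested. Fewer than 2239 of all 12186 tested genes were under that unadjusted threshold. This is the rank by p of Lrp1, whose unadjusted edgeR p was 0.0529, and the exact share was not counted. The 6 of 8 macrophage markers were a larger share than this bound. No direction is read from these marker counts. The summed levels of the macrophage markers were 5246 to 9271 CPM in WT and 6131 to 7778 in GrnKO. The summed level of 8 neutrophil markers was 43.0 to 154 CPM in WT and 13.8 to 26.5 in GrnKO, without overlap. Of these, 3 were tested and edgeR called all 3 lower, against 1.46% of all tested genes, while limma-voom called 2. All marker lists were chosen with earlier results of these data known. The part of the neutrophil markers in the results above was not tested. None of the markers of T cells, B cells, dendritic cells, mast cells, fibroblasts or erythroid cells had enough counts to be tested, their summed levels being at most 2.92 CPM in any library. Osteoclast markers summed to 3.71 to 8.82 CPM in WT and 6.72 to 11.6 in GrnKO, and endothelial markers to 8.14 to 33.0 and 24.6 to 34.7 CPM, with no gene called by edgeR in either list. Of these 3 tested genes, 2 had an unadjusted edgeR p under 0.05, and DESeq2 called 1, against 6.00% of all genes it tested. Among 2 tested osteoclast markers, the 1 under that threshold was Acp5, named after its value was seen. Its groups did not overlap, with low means of 1.45 CPM in WT and 4.43 in GrnKO. The log2 fold change was 1.59 ± 0.43 (SE, edgeR adjusted p = 0.0637).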

How the data were processed

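Libraries of 3′ mRNA tags with unique molecular identifiers, which serve to remove PCR duplicates per the labels' protocols, were made from 4 WT and 4 GrnKO cultures. The authors deposited estimated counts per gene, for which Salmon and the build GRCm39 are named per the submitters' processing notes, without a Salmon version. Non-whole values made up 36.4% of the non-zero entries (tolerance 1e-06), and every value was rounded. The authors also deposited log2 CPM values with a prior count, used only in alternatives after that prior was subtracted. Symbols came from the deposited gene table, and groups from the sample titles.

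Genes passing filterByExpr were tested in edgeR 4.0.16 (R 4.3.3) by the quasi-likelihood F test with TMM factors and robust dispersions, Benjamini-Hochberg adjusted over all 12186 tested genes; calls are at 0.05. Standard errors were derived from F. CPM divides counts by TMM-scaled totals (factors between 0.964 and 1.05). Ratios were log2 of counts plus 1, with exact permutation tests. Same-group libraries differed by a chi-square per degree of freedom of at least 2.91, so none was the same library sequenced again. This check cannot tell whether cultures shared a marrow pool. The fit was tested on simulated data.

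Named genes were the members, up to 4 called genes by p from each list (or the gene with the smallest p where none was called), and the 2 genes nearest each member; exceptions are stated. A few listed genes are not reported here, and list counts leave them out. The members, lists, markers, ratios and motifs were chosen with earlier results of these data known. Overlapping genes came from GENCODE M21 on GRCm38, matched by gene ID. Alternatives were other scaling, filters, DESeq2 1.42.0, limma 3.58.1 (voom, and trend with pseudocounts of 1 and 0.25), dispersions, the replicate block, a threshold of 0.01 and leaving out each library.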

Additional observations from a re-analysis of the deposited data

How the results depend on the processing

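Grn kept its direction and its call under all 19 alternatives (log2 fold change -7.02 to -6.84). Sort1, Igf2r and Tmem106b kept their direction and were never called; with each library left out they ranged from -0.52 to -0.11, from 0.29 to 0.50 and from 0.04 to 0.23. The 3 ratios kept their direction under 10 alternatives each, and none was called. With all 8 libraries, the smallest adjusted p for a single separated ratio was 0.0857. With a library left out, or with the replicate block, too few assignments remained for any adjusted p under 0.05. The absence of calls in those alternatives was therefore fixed in advance and says nothing about the ratios. Psap was called with DESeq2 (log2 fold change 0.70), with every gene with a count tested (0.68) and without WT replicate 4; leaving out each library gave 0.53 to 0.87. Lrp1 was called with every gene with a count tested (-0.54) and ranged from -0.68 to -0.25 with each library left out. M6pr, which is near 0, changed sign when WT replicate 2 was left out (0.062), as when GrnKO replicate 1 (0.030) or 2 (0.012) was, and ranged from -0.068 to 0.062. The number of members called was 1, against 2 with DESeq2, 3 with every gene with a count tested and 1 to 2 with each library left out. The cause of these changes was not tested.

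Of all tested genes 518 were called, 340 higher and 178 lower. The numbers were 831 (517 and 314) with DESeq2, 209 (157 and 52) at an adjusted p under 0.01, and 918 (491 and 427) with every gene with a count tested. With no scaling factors 281 were higher and 281 lower, and the median shift over all tested genes was -0.10 in place of -0.03 on the log2 scale. Leaving out each library gave 267 to 942 called, 193 to 530 higher and 73 to 412 lower. With the replicate block 220 were called (168 and 52). Same-numbered libraries showed no sign of deviating together (correlation -0.39 to 0.147, against -0.3 to 0.4 for differently numbered ones). So few pairs cannot exclude that the numbers mark something shared. The block changed the call of no member, and Psap then had an edgeR adjusted p of 0.202. Of the other called genes named, Notch1 alone was not called with the block (edgeR adjusted p = 0.146).

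Sort1 had the fewest counts of the members in WT, at most 421, and its WT values had a coefficient of variation of 35.4%. The 4 libraries per group leave 95% intervals of up to 0.53 on either side of the log2 fold change for the members.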

Other observations

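Several genes of the progranulin pathway had too few counts to pass the filter for testing. The neutrophil serine protease genes Elane and Prtn3, whose products cleave progranulin outside cells, had at most 1 and 10 counts in any library, and Slpi, the gene of the inhibitor that protects it, had 1 to 17. The protease gene Adamts7 had at most 1 count, and the receptor genes Epha2, Tlr9 and Tnfrsf25 had at most 9, 3 and 1. Lrp2, the gene of the receptor megalin, had 1 to 4 counts, and Vldlr 2 to 18. These genes were left out of the comparison of genotypes by that filter, and no difference was read from them.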
